A study of Bos taurus with 16 samples.

Results

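TNF, IL6, IL1A and IL1B encode proinflammatory cytokines, and their level was followed here in bovine monocyte-derived macrophages (MDMs) with and without lipopolysaccharide (LPS). The 4 genes were chosen by identifier, as ENSBTAG00000025471 (TNF), ENSBTAG00000014921 (IL6), ENSBTAG00000010349 (IL1A) and ENSBTAG00000001321 (IL1B), by a rule that uses no measured value, although earlier results of these data were known when they were chosen. All 4 were among the 27607 genes of the count files. The files hold identifiers without gene symbols and the reference table used here matched 0 of the identifiers, so the symbols are those given with the choice and could not be checked.

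LPS comes from the outer membrane of gram-negative bacteria. It is sensed by macrophages through TLR4, and the signal activates NF-kB, which drives transcription of these cytokine genes. TNF acts on endothelium and leukocytes early in inflammation, and IL6 induces acute phase proteins in the liver and acts on lymphocytes. IL1A and IL1B bind the same receptor. IL1B is made as an inactive precursor that is cleaved before release, while the IL1A precursor is already active.

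The cells were grown for 11 days from blood mononuclear cells of 4 Holstein animals, whose libraries are labelled taurine and numbered 1, 20, 3 and 50, and of 4 Gir animals, labelled indicine and numbered 2, 5, 6 and 7, all in the first year of life. Cultures of each animal were then kept for 48 hours in medium alone (unstimulated) or with 100 ng/ml LPS. With a single library for each animal and stimulus there were 16 in all, so the stimuli could be compared within animals, and every comparison of breeds rested on 4 animals against 4. Levels are in CPM, the count of a gene scaled to a common library total. Total counts on genes ran from 7362247 to 10296054 per library, so that a level of 1 CPM stood for at least 7.36 counts. LPS was read at a single time, and markers of macrophages or of other cells could not be matched to identifiers. In such cultures, fewer cells of a type and less RNA per cell cannot be told apart.

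LPS treated MDMs had more TNF, IL6, IL1A and IL1B mRNA than unstimulated MDMs of the same animal in 8 of 8 animals for each gene. The median of the ratios of LPS treated to unstimulated level was 1.80 for TNF, 4.79 for IL6, 6.36 for IL1A and 6.38 for IL1B. No difference between Holstein and Gir passed the test for any of the 4 genes, in unstimulated MDMs, in LPS treated MDMs or in the response to LPS.

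**Figure D1:**
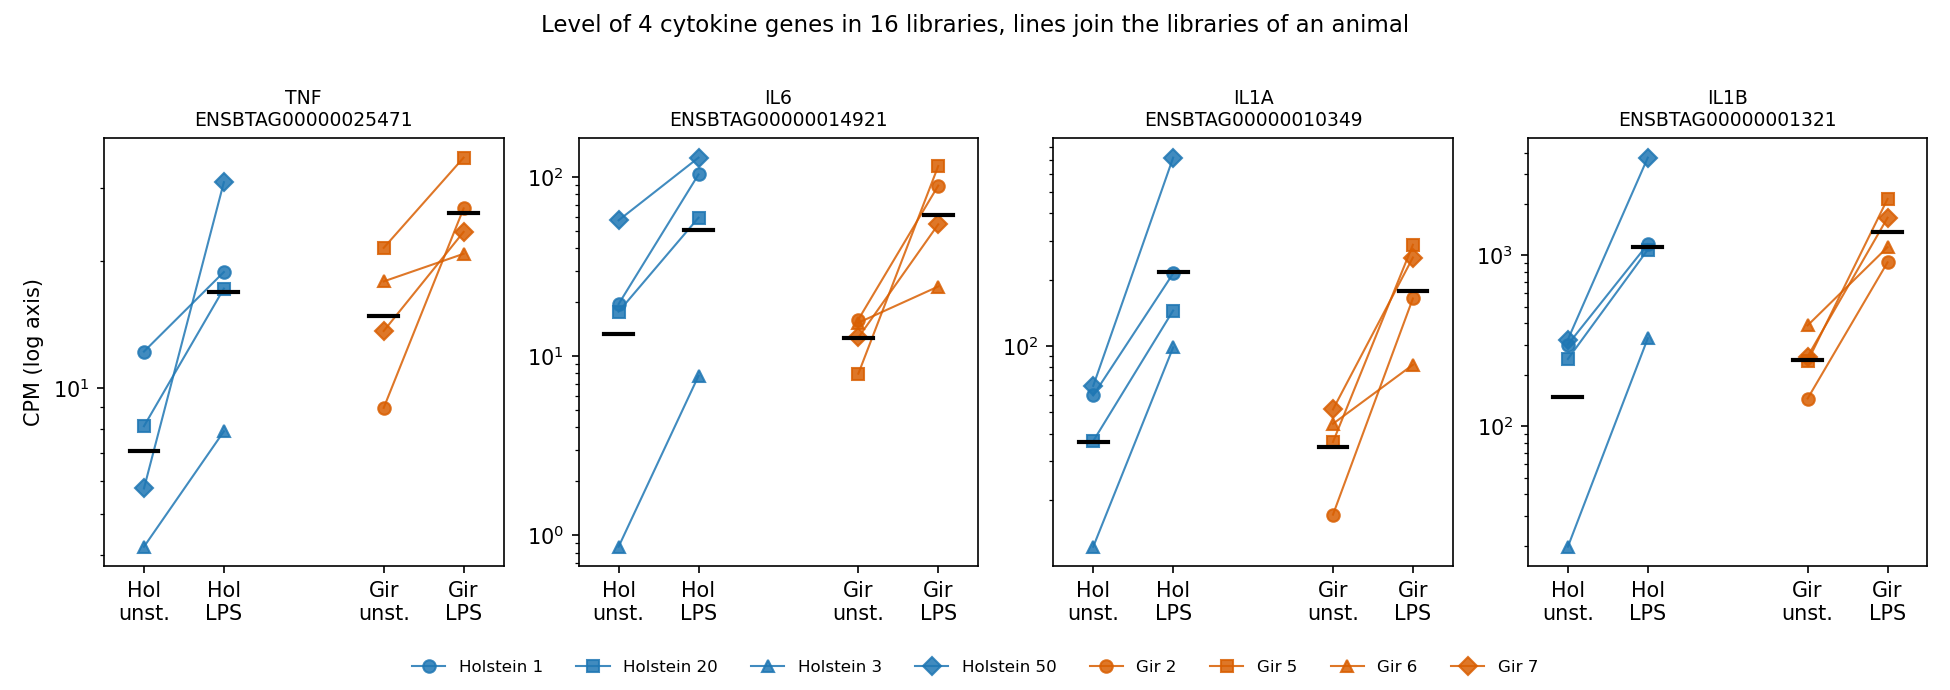
CPM (log axis) of TNF, IL6, IL1A and IL1B in 16 libraries, by breed (Hol, Holstein) and stimulus (unst., unstimulated). Points are libraries, lines join the libraries of an animal, and black bars are group means taken on the log2(CPM + 1) scale. Every line rises, and Holstein animal 3 is the lowest point of both Holstein groups in all 4 panels.

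TNF, the cytokine that acts early, had the smallest change. In unstimulated Holstein MDMs its level was 12.2, 8.10, 4.18 and 5.76 CPM in animals 1, 20, 3 and 50, and in their LPS treated MDMs it was 18.9, 17.2, 7.88 and 30.9 CPM. In unstimulated Gir MDMs it was 8.96, 21.5, 17.9 and 13.7 CPM in animals 2, 5, 6 and 7, and with LPS 26.8, 35.3, 20.9 and 23.5 CPM. Each animal was higher with LPS, while the groups overlapped in both breeds. The ratio of LPS treated to unstimulated level ran from 1.16 in Gir animal 6 to 5.36 in Holstein animal 50, and 6 of the 8 ratios lay below 2.2. The 95% counting interval of the ratio in Gir animal 6, from 0.917 to 1.48, included 1. The mean within-animal difference was 0.97 ± 0.63 (SD, n = 8) on the log2(CPM + 1) scale, with p = 0.00781 in an exact two-sided sign-flip permutation test. That is the smallest p that 8 animals can give.

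IL6, which acts on liver and lymphocytes, had the widest range of levels between Holstein animals on the log2 scale, with an SD of 2.10 without LPS, while in unstimulated Gir MDMs its SD of 0.42 was the smallest of the 4 genes. In unstimulated Holstein MDMs its level was 19.5, 17.7, 0.861 and 57.2 CPM in animals 1, 20, 3 and 50, and with LPS 103, 59.2, 7.75 and 128 CPM. In unstimulated Gir MDMs it was 15.99, 7.97, 15.3 and 12.7 CPM in animals 2, 5, 6 and 7, and with LPS 89.5, 115, 24.4 and 54.3 CPM. All LPS treated Gir libraries were above all unstimulated Gir libraries, but in Holstein the LPS treated library of animal 3 lay below 3 of the 4 unstimulated libraries. The ratio ran from 1.59 in Gir animal 6 to 14.4 in Gir animal 5. In Holstein animal 3 it was 8.995, which rested on 7 counts without LPS and 60 with LPS and had a 95% counting interval from 4.11 to 23.3. The mean within-animal difference of IL6 was 2.02 ± 0.92 (SD, n = 8) on the log2(CPM + 1) scale, with p = 0.00781 in the exact sign-flip test.

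IL1A, which encodes the interleukin 1 that is active as a precursor, was at 59.8, 37.1, 12.3 and 66.0 CPM in unstimulated MDMs of Holstein animals 1, 20, 3 and 50, and at 213, 145, 98.5 and 714 CPM after LPS. In Gir animals 2, 5, 6 and 7 it was at 17.2, 36.7, 44.4 and 51.6 CPM without LPS and at 164, 288, 82.2 and 252 CPM with LPS. Of the 4 genes, IL1A was the only one with every LPS treated library above every unstimulated library of either breed, the nearest being 82.2 CPM in Gir animal 6 with LPS and 66.0 CPM in unstimulated Holstein animal 50. The ratio ran from 1.85 in Gir animal 6 to 10.8 in Holstein animal 50. The mean within-animal difference of IL1A was 2.42 ± 0.85 (SD, n = 8) on the log2(CPM + 1) scale, with p = 0.00781 in the exact sign-flip test.

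IL1B, which encodes the interleukin 1 that is cleaved before release, was at 301, 247, 19.7 and 322 CPM in unstimulated MDMs of Holstein animals 1, 20, 3 and 50, and at 1164, 1080, 327 and 3735 CPM after LPS. In Gir animals 2, 5, 6 and 7 it was at 145, 240, 389 and 256 CPM without LPS and at 911, 2140, 1118 and 1661 CPM with LPS. LPS treated and unstimulated libraries did not overlap within either breed. In Holstein the margin was narrow, between 327 CPM in LPS treated animal 3 and 322 CPM in unstimulated animal 50. The ratio ran from 2.87 in Gir animal 6 to 16.6 in Holstein animal 3. The mean within-animal difference of IL1B was 2.70 ± 0.83 (SD, n = 8) on the log2(CPM + 1) scale, with p = 0.00781 in the exact sign-flip test.

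**Figure D2:**
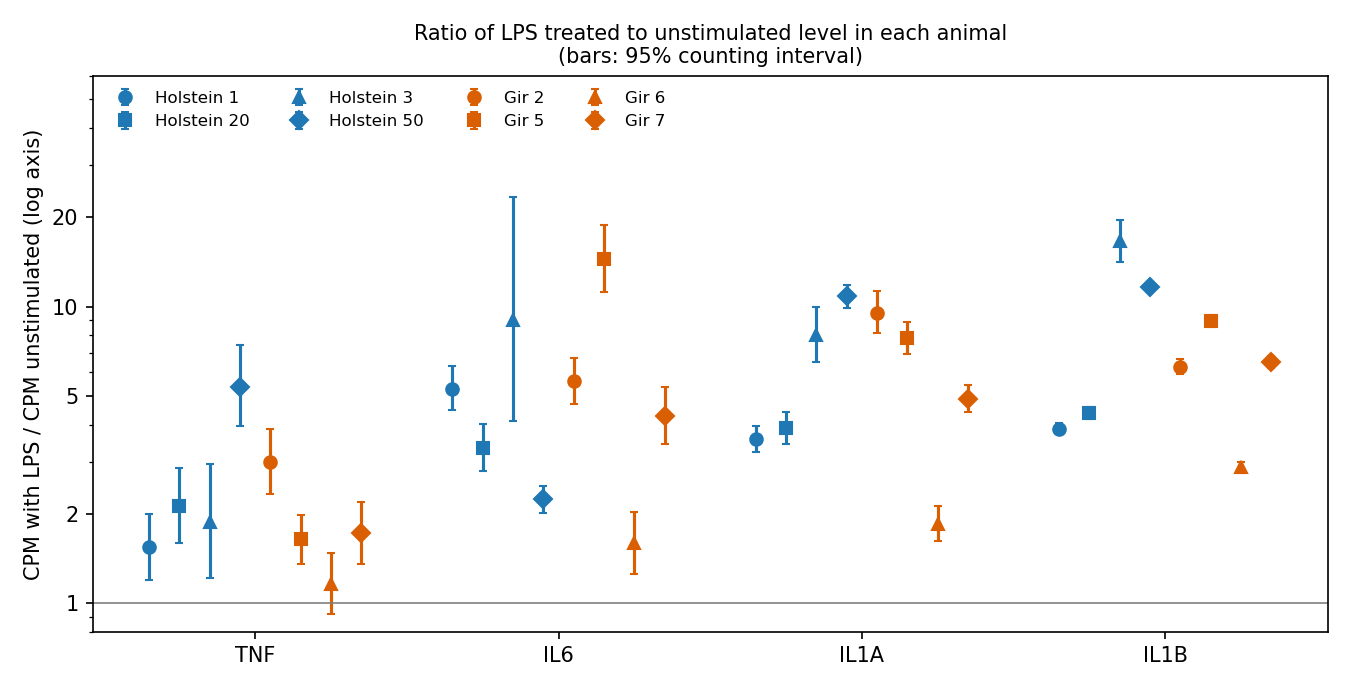
Ratio of LPS treated to unstimulated CPM (log axis) for each gene and animal, with 95% intervals that cover counting error only and a line at 1. Gir animal 6 has the lowest ratio for each gene, and the spread between animals is wider than most counting intervals.

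The 4 genes stood near the top of all genes for the size of the response. By the mean within-animal difference, out of 12968 genes that reached 1 CPM in 4 or more libraries, IL1B ranked 12, IL1A 16, IL6 37 and TNF 156. A level above that of the unstimulated library in all 8 animals, which 4 of 4 cytokine genes had, was seen for 2.49% of these genes, and for 5.37% after scaling with the trimmed mean of M values (TMM). Complete separation of LPS treated from unstimulated libraries, which 1 of the 4 had, was seen for 0.177% of genes, and for 0.378% after TMM. Within Holstein, 2 of the 4 (IL1A and IL1B) were separated against 1.42% of genes, and within Gir 3 of the 4 (IL6, IL1A and IL1B) against 1.62%. On library totals the median gene was lower with LPS by a log2 difference of -0.17, against -0.03 after TMM. Relative to the median gene, the mean differences were 1.13 for TNF, 2.19 for IL6, 2.59 for IL1A and 2.87 for IL1B on library totals, and 1.14, 2.20, 2.599 and 2.88 after TMM.

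In the model of all genes, edgeR's quasi-likelihood test with breed as a term called a gene when its Benjamini-Hochberg adjusted p was under 0.05 and its absolute log2 fold change at least 1. It called 3 of the 4 genes as higher with LPS, against 1.03% of all genes tested. IL1A rose by a log2 fold change of 2.73 (SE 0.46, adjusted p = 0.00704), IL1B by 2.83 (SE 0.53, adjusted p = 0.0118) and TNF by 1.19 (SE 0.29, adjusted p = 0.0416) in edgeR. IL6 had a log2 fold change of 2.20 (SE 0.60) and missed the threshold with an adjusted p = 0.0643 in edgeR. These fits take the libraries of an animal as unrelated. With the animal as a replicate block, edgeR called 4 of 4, against 1.82% of genes called higher, and IL6 had a log2 fold change of 2.26 (SE 0.30, adjusted p = 0.00152). The Wald test of DESeq2 also called 4 of 4, against 1.02% of genes. Shares for DESeq2 are of all genes with a count, here 20045, of which 14139 had an adjusted p, and so have another denominator than those for edgeR.

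Without the block, the calls of TNF and IL6 changed when an animal was left out, and so did the calls over all genes. TNF lost its edgeR call when Gir animal 2, 5 or 7 or Holstein animal 1, 20 or 50 was left out, with log2 fold changes from 0.94 to 1.29 and adjusted p from 0.0641 to 0.134. Over all genes, 211 calls in both directions fell to 96, 98 and 80 without Gir animal 2, 5 or 7. They fell to 150, 135 and 77 without Holstein animal 1, 20 or 50. IL6 was called by edgeR when Holstein animal 3 was left out, with an adjusted p = 0.00793, where calls over all genes rose to 383. IL1A and IL1B stayed called whichever of the 8 animals was left out. With the block, TNF without Holstein animal 50 was the only call lost, at a log2 fold change of 0.98.

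Within Holstein alone, the same test without the block called 0 of the 4 genes and 0% of all genes as higher, with 841 of 12400 genes at an unadjusted p under 0.05. The log2 fold changes were 1.53 (SE 0.47) for TNF, 1.88 (SE 1.05) for IL6, 2.98 (SE 0.76) for IL1A and 3.07 (SE 0.95) for IL1B. Without animal 50 they were 1.02 for TNF, 2.34 for IL6, 2.23 for IL1A and 2.37 for IL1B. With the animal as a block, edgeR called 4 of 4 in Holstein against 1.78% of genes, with adjusted p from 0.00985 for IL6 to 0.0492 for TNF. The count of calls changed when an animal was left out. The blocked edgeR fit called 0 of 4 without animal 20 (adjusted p from 0.0695 for IL1A to 0.198 for TNF), 1 without animal 1, 2 without animal 50 and 4 without animal 3. Over all genes, the blocked calls in both directions went from 472 to 8 without animal 20. The blocked log2 fold changes without that animal were 1.496 for TNF, 2.15 for IL6, 2.93 for IL1A and 3.36 for IL1B, against 1.47, 2.10, 2.74 and 3.097 with all 4 animals. DESeq2 called 2 of 4, IL1A and IL1B, against 0.646%.

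Within Gir alone, 0 of the 4 and 0% of all genes were called as higher without the block, with 1393 of 11913 genes at an unadjusted p under 0.05. The log2 fold changes were 0.91 (SE 0.30) for TNF, 2.59 (SE 0.44) for IL6, 2.52 (SE 0.45) for IL1A and 2.63 (SE 0.38) for IL1B. With the block, edgeR called IL1B, 1 of 4, against 0.168% of genes, with an adjusted p = 0.0434. That call was lost without animal 5 (adjusted p = 0.0669 in edgeR) and without animal 7 (adjusted p = 0.243), where 0 of 4 genes were called. Over all genes, the blocked calls in both directions went from 26 to 5 without animal 5 and to 0 without animal 7. The blocked log2 fold change of IL1B was 2.44 without animal 5 and 2.59 without animal 7, against 2.66 with all 4 animals. DESeq2 called 3 of 4, IL6, IL1A and IL1B, against 0.74%. Without Gir animal 6, whose ratios were the lowest for each gene, edgeR called IL6 and IL1B without the block and IL6, IL1A and IL1B with it. Over all genes, the calls in both directions were then 33 without the block and 191 with it. An exact sign-flip test over 4 animals cannot go below p = 0.125, and each of the 4 genes reached that value in each breed.

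**Figure D3:**
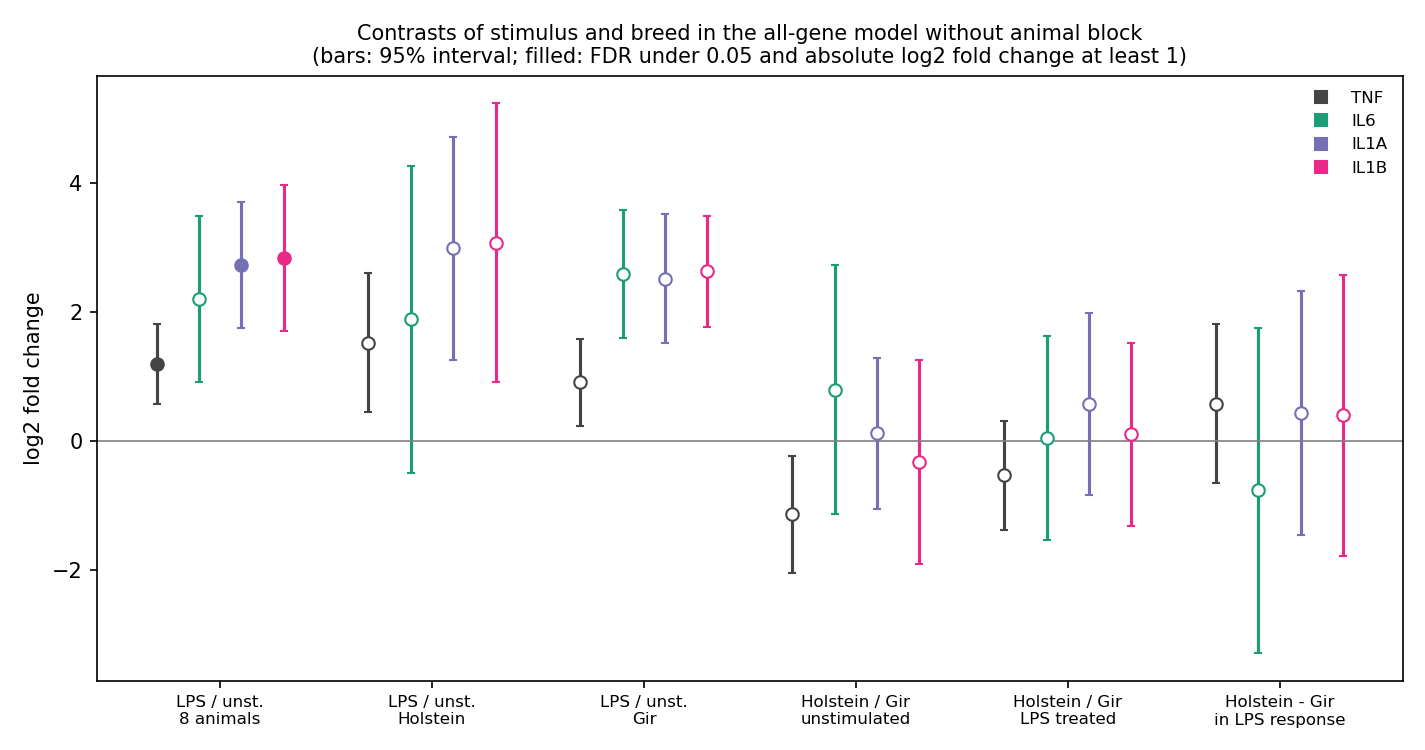
Log2 fold changes of 4 genes (colours) in 6 contrasts of the edgeR model without animal block, with 95% intervals. Filled points passed the threshold, which TNF, IL1A and IL1B did for LPS over 8 animals and no gene did in the other contrasts.

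For unstimulated MDMs of the breeds, edgeR called 0 of the 4 genes, against 0.318% of all genes. TNF was at 7.56 ± 3.49 CPM in Holstein and 15.5 ± 5.43 CPM in Gir (SD, n = 4 each). The groups overlapped, since Holstein animal 1 (12.2 CPM) was above Gir animal 2 (8.96 CPM). The log2 fold change of Holstein relative to Gir was -1.13 (95% interval from -2.04 to -0.22), with an unadjusted p = 0.0204 and an adjusted p = 0.319 over all genes in edgeR. The difference of log2(CPM + 1) was -0.97, with p = 0.0571 in an exact two-sided permutation test, or 0.457 after Benjamini-Hochberg adjustment over the 8 comparisons of breeds by gene and stimulus. For IL6, IL1A and IL1B the edgeR log2 fold changes were 0.80 (95% interval from -1.13 to 2.73), 0.13 (from -1.04 to 1.30) and -0.32 (from -1.89 to 1.26). Their exact p-values lay between 0.743 and 0.914.

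For LPS treated MDMs of the breeds, edgeR called 0 of the 4 genes, against 7.35% of all genes. TNF was at 18.7 ± 9.45 CPM in Holstein and 26.6 ± 6.29 CPM in Gir (SD, n = 4 each), with a log2 fold change of -0.53 (95% interval from -1.37 to 0.32). The intervals were -1.52 to 1.62 for IL6, -0.83 to 1.98 for IL1A and -1.31 to 1.52 for IL1B, so differences of more than 2-fold lay within the intervals in either direction for IL6 and IL1B, for IL1A only as a higher level in Holstein, and for TNF only as a lower level in Holstein. The exact permutation p was 0.2 for TNF, 0.829 for IL6, 0.771 for IL1A and 0.743 for IL1B. For IL6 and IL1B the sign depended on the scale, with edgeR log2 fold changes of 0.05 and 0.11 and mean differences of log2(CPM + 1) of -0.27 and -0.31. Libraries of the breeds overlapped for 4 of the 4 genes under both stimuli, as they did for most genes. Of all genes, 7.78% in unstimulated and 15.2% in LPS treated MDMs had no overlap.

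Whether Holstein and Gir responded differently to LPS was tested directly. The model with 4 groups called 0 of the 4 genes and 0% of 12968 genes without the block and 0% with it, with 249 genes at an unadjusted p under 0.05 without it, 1074 with it, and 2 called by DESeq2. The mean within-animal difference of TNF was 1.15 ± 0.74 in Holstein and 0.78 ± 0.52 in Gir, and that of IL6 was 1.85 ± 0.55 and 2.19 ± 1.26 (log2(CPM + 1), SD, n = 4 each). For IL1A it was 2.52 ± 0.77 and 2.31 ± 1.04, and for IL1B 2.90 ± 1.02 and 2.50 ± 0.69. The exact permutation p of the difference was 0.514 for TNF, 0.686 for IL6, 0.829 for IL1A and 0.543 for IL1B. With the block, the 95% intervals of the log2 difference in edgeR were -0.52 to 1.43 for TNF, -1.68 to 0.99 for IL6, -1.04 to 1.43 for IL1A and -0.77 to 1.56 for IL1B.

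The responses of the 4 genes were also compared with each other within animals, as differences of the log2(CPM + 1) differences. TNF changed less than IL1A and less than IL1B in 8 of 8 animals, with mean differences of -1.45 ± 0.56 and -1.73 ± 0.75 (SD, n = 8), an exact sign-flip p = 0.00781 for each and an adjusted p = 0.0234 over the 6 pairs. On ratios of counts, added after the values had been seen, both had the same exact p and an adjusted p = 0.0703 over 18 ratio tests, so they did not pass there. The mean log2 ratio rose with LPS by 1.41 for IL1A to TNF and by 1.67 for IL1B to TNF, in 8 of 8 animals each. TNF changed less than IL6 in 7 of 8 animals, by -1.06 ± 1.17, with an exact p = 0.0391 that was 0.0781 after adjustment. Holstein animal 50 was the exception, with a ratio of 5.36 for TNF and 2.24 for IL6. The other 3 pairs had exact p-values from 0.102 to 0.305.

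Across the 8 animals, the responses of IL1A and IL1B had a Pearson r of 0.85 (exact permutation p = 0.0088, adjusted 0.0528 over 6 pairs) and a Spearman rho of 0.76 (exact p = 0.0368, adjusted 0.110). Without the 2 animals farthest from the median IL1A response, r was 0.71. For TNF and IL1A r was 0.76 (exact p = 0.0291, adjusted 0.0874) and rho 0.79 (exact p = 0.0279, adjusted 0.110). Without the 2 animals farthest from the median TNF response, r was 0.64. Neither passed after adjustment. The other 4 pairs had r from -0.12 to 0.50 with exact p of at least 0.211. For these pairs the 2 animals farthest from the median response of the gene named first were left out. Then r turned from -0.12 to 0.43 for TNF and IL6 and from 0.46 to -0.28 for IL6 and IL1A. It turned from 0.35 to -0.26 for IL6 and IL1B, and was 0.47 for TNF and IL1B. With 4 animals per breed, no r was computed within breeds, and the genes of a library share its total.

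**Figure D4:**
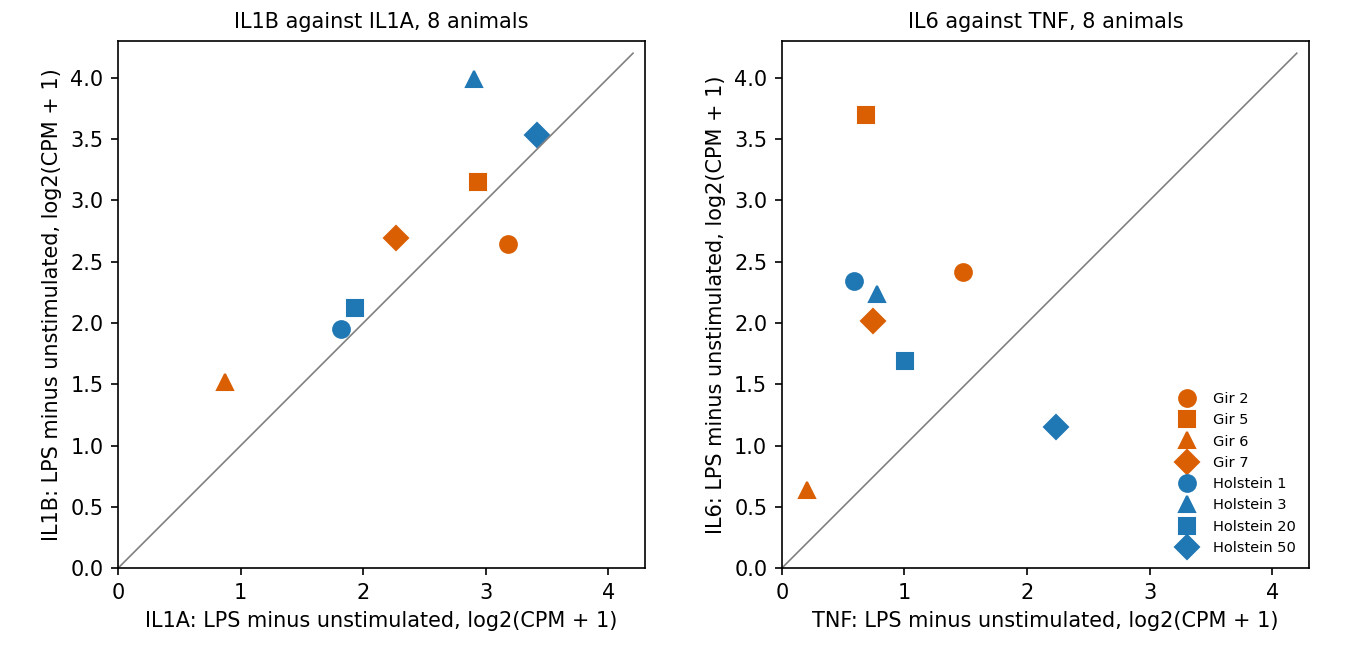
Within-animal differences of log2(CPM + 1) between LPS treated and unstimulated MDMs, for IL1B against IL1A (left) and IL6 against TNF (right), with a line of equal response. IL1B lies above the line of equal response in 7 of 8 animals, farthest in Holstein animal 3, and Holstein animal 50 is the only animal below the line for IL6 and TNF.

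The ratio of IL1B to IL1A counts, examined after the values had been seen, separated 1 animal from the rest. In Holstein animal 3 it was 1.60 without and 3.32 with LPS, on 160 and 100 counts in the unstimulated library, and in the other 14 libraries it lay between 4.87 and 13.6. This ratio depends on the lengths of both transcripts, so it was compared only between libraries. It did not pass a test between breeds, with an exact p = 0.171 under each stimulus.

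The order of the groups by mean log2(CPM + 1) put both unstimulated groups below both LPS treated groups for each of the 4 genes. As the order was set by these means, tests run between its neighbouring groups cannot bear on it and are not used here. For TNF the middle groups, unstimulated Gir (3.98) and LPS treated Holstein (4.16), overlapped and differed by less than the SD of either. For IL6 the middle groups, unstimulated Holstein (3.84) and LPS treated Holstein (5.69), overlapped. For IL1A unstimulated Holstein (5.24) and LPS treated Gir (7.48) did not overlap. For IL1B unstimulated Gir (7.93) and LPS treated Holstein (10.1) overlapped, with the LPS treated library of Holstein animal 3 below an unstimulated Gir library. Neighbouring groups of the same stimulus overlapped for each of the 4 genes.

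Among 12467 genes compared by Pearson r of log2(CPM + 1) over the 16 libraries, the genes most alike to any of the 4 were ENSBTAG00000006132, with r = 0.967 to TNF, and ENSBTAG00000021462, with r = 0.964 to IL1A. Their mean within-animal differences with LPS were 0.82 ± 0.62 and 3.71 ± 0.86 (log2(CPM + 1), SD, n = 8), and both were higher in 8 of 8 animals. Among the 4 genes, r over the 16 libraries ran from 0.67 for TNF and IL6 to 0.93 for IL1A and IL1B. These r values are descriptions over libraries that differ in stimulus, breed and animal.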

How the data were processed

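RNA-seq libraries of 16 MDM cultures were analysed. The values deposited by the authors are raw counts for each gene, with no normalization applied. The submitters' processing notes name FastQC, STAR 2.6.0c, HTSeq 0.10.0 and the build UMD3.1, whereas the study's methods name ARS-UCD1.2; no coordinate is used here. The 5 counters of unassigned alignments were left out of library totals. The low quality counter equalled the counter of alignments that were not unique in 16 of 16 libraries. Without the low quality counter, the counters made up 18.4% to 23.2% of counts plus counters. Groups and animal numbers came from the labels, and the shared number pairs the libraries of an animal. The correlation of the deviations of paired libraries from group means was 0.658 to 0.854 in Holstein. In Gir it was lower, at 0.0212 to 0.398.

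The members and lists were chosen with earlier results of these data known. Genes that reached 1 CPM in 4 or more libraries of a contrast were fitted in edgeR 4.0.16 (R 4.3.3) with TMM and the quasi-likelihood test, with Benjamini-Hochberg adjustment over all genes tested. SEs are the log2 fold change over the square root of F. DESeq2 1.42.0 was an alternative, as were its size factors, no filter, no fold limit, the animal as replicate block and leaving out each animal; the block with an animal left out was added after seeing the data. Single values used exact permutation tests in Python 3.11.15 on log2(CPM + 1), with a pseudocount of 0.1 CPM or TMM scaling as alternatives. Counting intervals (95%) cover counting error only. On simulated counts with 200 genes changed by 2 (log2), the fit recovered 86.5% for LPS over 8 animals (12968 genes, 6 false calls), 59.0% for LPS in Holstein (12400 genes, 1 false call), 89.5% for LPS in Gir (11913 genes, 9), 65.5% for unstimulated breeds (12565 genes, 8), 77.5% for LPS treated breeds (11986 genes, 8) and 47.0% for the breed difference in response (12968 genes, 3). The simulated libraries of an animal were drawn as unrelated, and 200 genes changed in each fit. The shares recovered are therefore a check of the fit and not of its power for these data. The named genes were the 4 members and the 2 identifiers most correlated with any of them. The reference table (ARS-UCD2.0, 37063 genes) matched 0 identifiers, so planned pathway and marker lists were not analysed here. Plots used matplotlib 3.10.9.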

Additional observations from a re-analysis of the deposited data

Results flagged for a closer look

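The IL1B level in unstimulated Holstein MDMs was flagged because 1 of the 4 animals stood far from the others. Animal 3 had 19.7 CPM, against 247 to 322 CPM in animals 1, 20 and 50, and on the log2(CPM + 1) scale its gap to the nearest animal was 0.905 of the group's whole range. In all, 24 groups of values of the 4 genes were examined, of which 1 was flagged, and chance flags about 1 in 20. The same animal had the lowest level of TNF, IL6 and IL1A in both Holstein groups. Without it, the difference in unstimulated IL1B between Holstein and Gir was 0.25 in place of -0.70 on the log2(CPM + 1) scale, with exact permutation p = 0.543 and 0.743. The cause was not tested.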

How the results depend on the processing

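Over both breeds together, the within-animal LPS difference passed its exact test for 4 of 4 genes under each alternative. Each animal was higher with LPS, so leaving out 1 animal could not change that outcome. Within a breed, where the test cannot pass, its p ran from 0.125 to 0.25. Over 8 animals, the all-gene model called 3 of the 4 genes, 2 to 4 when an animal was left out, and 4 with the replicate block. In Holstein it called 0, against 2 with DESeq2 and 4 with the block; the block called 0 without animal 20, 1 without animal 1, 2 without animal 50 and 4 without animal 3, with log2 fold changes without animal 20 of 1.496 (TNF), 2.15 (IL6), 2.93 (IL1A) and 3.36 (IL1B). In Gir it called 0, against 3 with DESeq2, 1 with the block and 0 to 2 when an animal was left out; the block called 0 without animal 5 or 7, 1 without animal 2 and 3 without animal 6. Size factors, no filter and no fold limit moved no count among the 4 genes by over 1.5 times. Over all genes, 211 calls for LPS over 8 animals became 349 with no fold limit, 709 with the block and 691 with DESeq2, which also used its own filter on 20045 genes; 0 in Holstein became 472 with the block and 162 with DESeq2, and 0 in Gir 26 and 352. Between breeds DESeq2 called 333 in place of 40 genes in unstimulated and 1412 in place of 881 in LPS treated MDMs. The block changed no other count among the 4 genes.

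Breed differences of IL6, IL1A and IL1B changed sign under some alternatives, while those of TNF kept theirs (edgeR: -1.41 to -0.93 unstimulated, -0.93 to -0.27 with LPS, 0.03 to 0.89 in the response). Leaving out an animal gave edgeR ranges in unstimulated MDMs of -0.11 to 1.198 (IL6), -0.14 to 0.43 (IL1A) and -0.55 to 0.064 (IL1B), in LPS treated MDMs of -0.40 to 0.43, -0.44 to 0.87 and -0.84 to 0.44, and in the response of -0.32 to 0.73 (IL1A) and -0.31 to 0.69 (IL1B). With the block, the response was 0.14 for IL6 without Gir animal 5, and for IL1A -0.22 without Gir animal 6 and -0.15 without Holstein animal 50. On log2(CPM + 1), the ranges in unstimulated MDMs were -0.61 to 1.05 (IL6), -0.24 to 0.59 (IL1A) and -1.07 to 0.25 (IL1B), in LPS treated MDMs -0.71 to 0.59, -0.29 to 0.66 and -0.89 to 0.28, and in the response -0.85 to 0.16 (IL6) and -0.28 to 0.49 (IL1A). IL6 in unstimulated MDMs was -0.10 with a pseudocount of 0.1 CPM. Of the exact breed tests per stimulus, 0 passed, and 0 to 1 when an animal was left out: unstimulated IL6 without Holstein animal 3 (1.05) and LPS treated TNF without Holstein animal 50 (-0.88), both at p = 0.0286 before adjustment. The cause was not tested. IL6 in unstimulated Holstein animal 3 rested on 7 counts, in a library of 8125681 counts on genes against a median of 8302642.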
